A study of Mus musculus with 24 samples.

Results

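This comparison set bone marrow-derived macrophages labelled FosKO against macrophages labelled LysM after 1 h of LPS, with 3 libraries in each group. It used 6 of the 24 RNA-seq libraries of the study, and 13901 of the 24273 genes in the normalised table passed the filter on low values and were tested. The cells came from C57BL/6 mice. The FosKO mice carried LysM-Cre together with floxed alleles of Fos (Fos fl/fl), and the control mice, called LysM, carried LysM-Cre in the labels. The study's text describes the control mice of the RNA-seq as Fos FL/+ LysM-Cre, thus with a single floxed Fos allele. It shortens this to LysM-Cre, and the library labels do not mention a floxed allele. By these descriptions both groups carried the Cre recombinase, which in LysM-Cre mice is inserted at Lyz2 and drives deletion in myeloid cells. Expression of Cre was not tested. Both groups received LPS from Salmonella minnesota R595 at 100 ng/ml, and the other 18 libraries were taken without LPS or after 0.5 and 2 h of it. Neither the age of the mice nor which animal gave which culture was in the sources used here, so p-values measure the spread between these libraries.

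LPS binds TLR4 with CD14 and MD-2 and starts a pair of signalling arms in macrophages. The MyD88 arm activates NF-κB and, through the kinase TPL-2 (gene Map3k8), the ERK MAP kinases, and the TRIF arm activates IRF3, which is needed for transcription of the interferon gene Ifnb1. ERK phosphorylates the ternary complex factors (TCFs), which act with SRF on immediate early genes, Fos among them. FOS protein pairs with JUN proteins to form AP-1, a transcription factor that binds TGANTCA sites. Secreted interferon-β signals through its receptor, JAK kinases and STAT factors to a large group of interferon-stimulated genes. The question addressed here is which transcripts differed between macrophages labelled FosKO and LysM after 1 h of stimulation.

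The values are the deposited log2 normalised expression values, so a difference of 1 is a 2-fold difference, and every difference below is FosKO minus LysM. A gene was called when limma gave a Benjamini-Hochberg adjusted p under 0.05 over all tested genes. The number of reads behind each value is not in the table, so no counting interval was given. Libraries of 1 group at 1 h correlated at 0.995 to 0.998 across genes, and libraries of different genotypes at 0.989 to 0.994. The median SD over genes was 0.060 in the LysM group and 0.072 in the FosKO group. The macrophage markers (10 of 10 tested, among them Adgre1, Csf1r and Cd68) summed to log2 values of 17.98 to 18.03 in the LysM libraries and 18.08 to 18.12 in the FosKO libraries, and 5 of them were called higher and 2 lower in FosKO at 1 h, from -0.18 to 0.89. Of the 14 lymphocyte markers found, 11 were below the filter, Cd3e and Cd79a among them.

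One technical feature divided the libraries. The 18S ribosomal RNA gene Rn18s-rs5 read 18.57 to 19.39 in 19 of the 24 libraries and 16.65 to 17.00 in the other 5. At 1 h the low libraries were LysM replicates 2 and 3 and FosKO replicate 1, and the high ones were LysM replicate 1 and FosKO replicates 2 and 3. Each genotype thus held libraries of both kinds, and the 2-fold genes and a few named ones are also given within the high and within the low libraries. With the 18S set as a term in the fit 4522 genes were called, against 4708 without it, and 184 of 189 named genes kept their direction and call.

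The targeted gene was read first. Fos, on chromosome 12 from 85473890 to 85477273 (GRCm38, plus strand), read 11.02, 11.07 and 11.34 in the LysM libraries and 12.86, 12.67 and 12.82 in the FosKO libraries. The FosKO libraries were all above the LysM libraries, by 1.64 (SE 0.09, adjusted p = 1.9e-11). The same difference was 1.49 without LPS, -0.77 after 0.5 h and 3.29 after 2 h. The summed value of the gene therefore did not fall in the libraries labelled FosKO at 1 h and gave no check of their label. The values are per gene, and transcripts with and without the floxed part cannot be told apart in them. In the text, FosKO and LysM mean the libraries labelled so, and every direction rests on those labels. The paper reports more Ifnb1 mRNA by qRT-PCR, and more secreted IFN-β, in FosKO than in LysM-Cre macrophages after LPS. Ifnb1 was also higher here in the libraries labelled FosKO, by 3.18. Whether the labels are right was not tested.

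Of the 13901 genes, 4708 (33.9%) were called at 1 h, 2500 (18%) higher and 2208 (15.9%) lower in FosKO. A call alone was thus common, and the lists below were read against these shares and against a median difference over all tested genes of 0.0020. At least 2-fold differences were called for 237 genes (1.7%), of which 160 (1.15%) were higher and 77 (0.554%) lower. Of the 160, 139 were protein-coding, as were 69 of the 77. Of the 160, 5 passed the filter on low values only through FosKO libraries, and of the 77 none passed only through LysM libraries. The libraries of the genotypes did not overlap at 6258 genes (45%). With quantile normalisation the share of calls that were higher went from 53.1% to 42.8%.

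**Figure D1:**
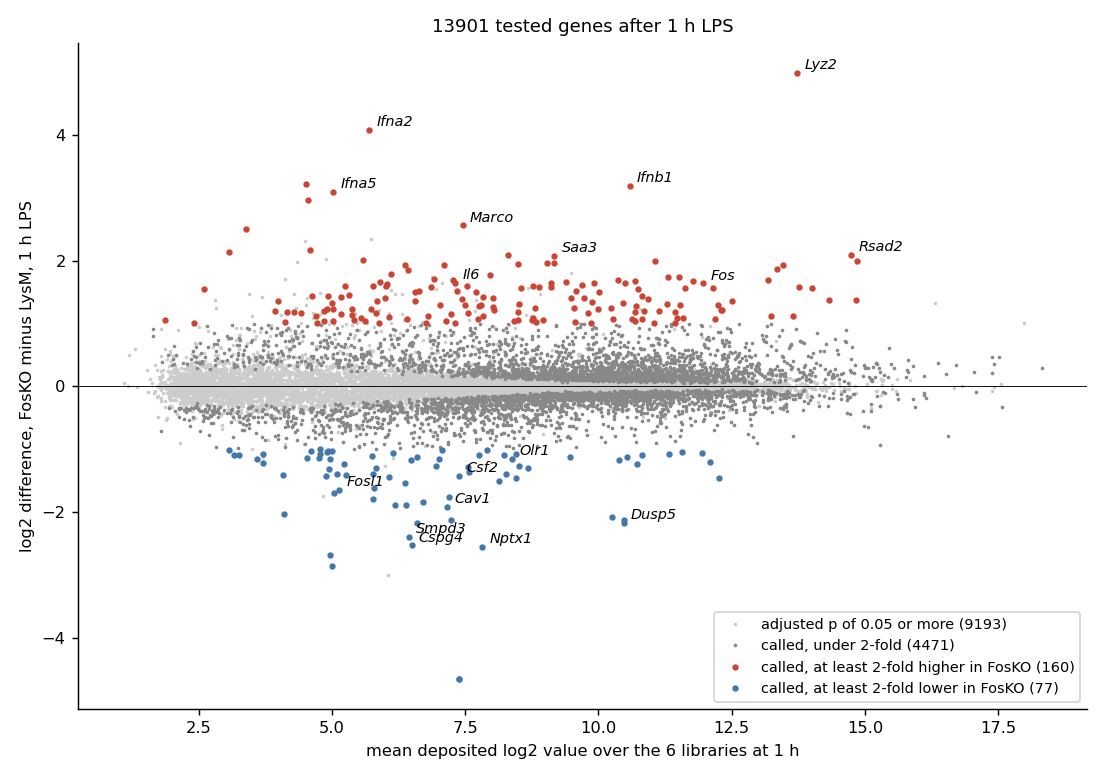
Each point is 1 of the 13901 tested genes, with the mean deposited log2 value over the 6 libraries at 1 h on the x axis and the log2 difference, FosKO minus LysM, on the y axis. Red points are the 160 genes called at least 2-fold higher and blue points the 77 called at least 2-fold lower, with Lyz2 at 4.98 and Nptx1 at -2.56 among them.

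The 2-fold genes were also compared within each kind of library, where 1 group has only 1 library (LysM replicate 1 among the high and FosKO replicate 1 among the low ones). In the high 18S libraries all 160 higher genes were higher (median difference 1.49), and in the low 18S libraries 159 of the 160 were (median 1.15). All 77 lower genes were lower in both, with medians of -1.30 and -1.29. A 2-fold difference was present in both kinds of library for 103 of the 160 and 57 of the 77 genes. These libraries also entered the test that chose the genes, so the counts are a description. Leaving out FosKO replicate 1 raised the number of 2-fold genes to 383 (294 higher), and 57 of the 152 genes gained were pseudogenes (37.5%, against 5.71% of the genes tested).

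**Figure D2:**
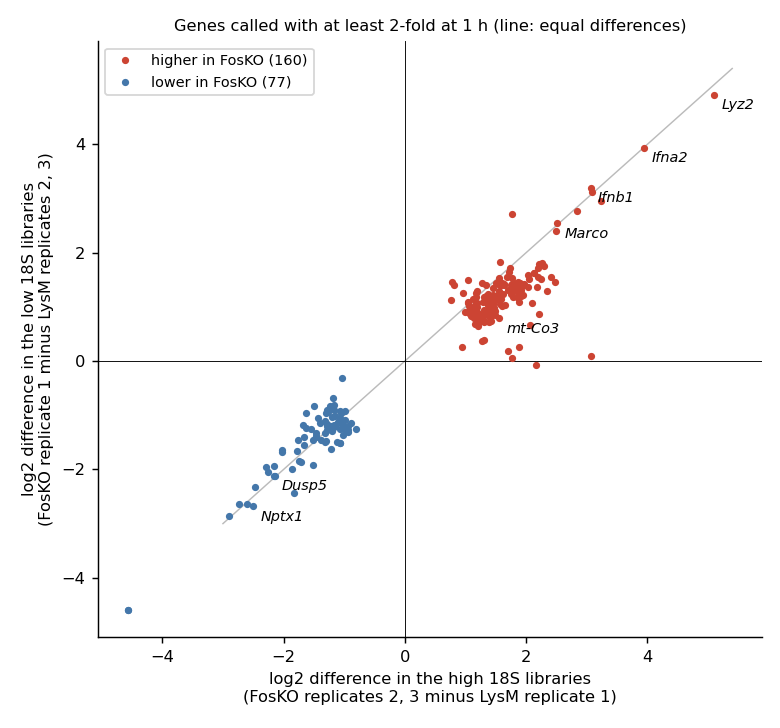
Each point is a gene called at least 2-fold at 1 h, with its log2 difference (FosKO minus LysM) in the 3 high 18S libraries on the x axis and in the 3 low 18S libraries on the y axis. The grey line marks equal differences, and all but 1 of the 237 genes have the same sign in both.

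The interferon genes gave the largest differences linked to LPS, and 2 of their RefSeq promoters (GRCm38.p6) are shown with those of other genes that turn up in the results. The stretches end at the base before the annotated start and are written 5′ to 3′ on the gene's strand. Capitals mark matches, on either strand, to TGANTCA (AP-1), GGG, any pair of bases and then TTTCC or ATTCC (NF-κB), or GAAA, any pair of bases and then GAAA (the interferon-stimulated response element, ISRE). Ifnb1 (chr4:88522795-88522944, minus strand) is the interferon-β gene and carries the NF-κB match 116 to 107 bases upstream. Ifna4 (chr4:88841566-88841815, plus strand) carries a pair of ISRE matches. Il6 (chr5:30012864-30013113, plus strand) and Cxcl10 (chr5:92348890-92349139, minus strand) encode a cytokine and a chemokine and carry AP-1 and NF-κB matches, with an ISRE match at Cxcl10. Rsad2 (chr12:26456453-26456602, minus strand), an interferon-stimulated gene, carries an ISRE match beside an AP-1 match. Olr1 (chr6:129507166-129507315, minus strand) and Tnfsf14 (chr17:57194182-57194381, minus strand) were lower in FosKO and carry an AP-1 match each.
Ifnb1: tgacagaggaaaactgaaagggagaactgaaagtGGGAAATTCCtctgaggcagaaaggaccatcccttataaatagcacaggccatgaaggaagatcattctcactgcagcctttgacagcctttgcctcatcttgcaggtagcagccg
Ifna4: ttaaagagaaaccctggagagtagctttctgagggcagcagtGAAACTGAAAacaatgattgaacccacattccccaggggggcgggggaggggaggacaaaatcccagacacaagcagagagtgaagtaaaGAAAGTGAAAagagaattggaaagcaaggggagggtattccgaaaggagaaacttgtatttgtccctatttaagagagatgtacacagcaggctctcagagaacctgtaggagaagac
Il6: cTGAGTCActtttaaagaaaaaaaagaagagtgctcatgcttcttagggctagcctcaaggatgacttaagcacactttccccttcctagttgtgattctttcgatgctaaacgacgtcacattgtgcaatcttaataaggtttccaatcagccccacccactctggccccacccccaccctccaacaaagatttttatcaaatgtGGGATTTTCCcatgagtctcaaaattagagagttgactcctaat
Cxcl10: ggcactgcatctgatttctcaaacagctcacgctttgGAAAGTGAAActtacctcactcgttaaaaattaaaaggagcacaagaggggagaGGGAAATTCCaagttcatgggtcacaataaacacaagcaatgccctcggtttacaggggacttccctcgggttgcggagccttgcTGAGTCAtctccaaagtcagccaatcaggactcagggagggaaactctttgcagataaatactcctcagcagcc
Rsad2: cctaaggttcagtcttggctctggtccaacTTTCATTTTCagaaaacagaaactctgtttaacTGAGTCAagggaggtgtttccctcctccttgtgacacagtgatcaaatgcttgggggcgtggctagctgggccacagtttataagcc
Olr1: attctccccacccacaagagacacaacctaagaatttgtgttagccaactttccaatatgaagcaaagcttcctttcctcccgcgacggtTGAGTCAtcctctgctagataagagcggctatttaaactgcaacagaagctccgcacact
Tnfsf14: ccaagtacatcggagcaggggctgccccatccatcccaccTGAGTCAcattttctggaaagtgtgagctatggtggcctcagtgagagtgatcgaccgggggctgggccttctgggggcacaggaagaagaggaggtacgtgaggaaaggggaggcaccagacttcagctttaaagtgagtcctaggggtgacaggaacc
A match is a description of the letters and not a measured site.

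Among the type I interferon genes, which encode secreted cytokines that start the antiviral programme, Ifnb1 and the alpha interferon genes Ifna1, Ifna2, Ifna4 and Ifna5 had values above the filter in LysM libraries as well and were all called higher in FosKO at 1 h. Ifnb1 (chromosome 4, 88522025 to 88522774, a gene with a single exon) read 9.14, 9.11 and 8.73 in the LysM libraries and 12.11, 12.19 and 12.24 in the FosKO libraries. The groups were far apart, and the difference of 3.18 (SE 0.12, adjusted p = 1.5e-13) is 9.09-fold. In the control macrophages Ifnb1 itself was 2.92 higher at 1 h than without LPS (adjusted p = 6.8e-14). The genotype difference was 0.10 without LPS, and it was larger at 1 h by 3.09 (adjusted p of the difference 6.7e-10).

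Ifna2 read 3.92, 3.58 and 3.49 in the LysM libraries and 7.47, 7.82 and 7.93 in the FosKO libraries, a difference of 4.07 (SE 0.14, adjusted p = 2.3e-14). Ifna5 read 3.37, 3.61 and 3.46 in the LysM libraries and 6.48, 6.58 and 6.65 in the FosKO libraries, a difference of 3.09 (SE 0.11). No FosKO library came near a LysM library at either gene. Ifna1 and Ifna4 differed by 3.21 (adjusted p = 3.6e-13) and 2.96 (adjusted p = 2e-11). Without LPS the differences of these 4 genes lay between 0.03 and 0.07, and at 0.5 h between 0.04 and 0.34, none of them called, while that of Ifnb1 was 1.69 at 0.5 h and called. Of the 18 interferon genes listed, 11 were tested and all 11 were called higher, but 6 of them (Ifna6, Ifna9, Ifna11, Ifna14, Ifna16 and Ifnab) passed the filter only through FosKO libraries and had to differ, so they give no support. Another 5 (Ifna12, Ifna13, Ifna15, Ifnk and Ifnz) were below the filter, at 0.48 or less in the 6 libraries, and the other 2, Ifna7 and Ifne, were not matched in the table. The alpha interferon genes are near copies of one another, and how the counting shared reads among them is not known, so their single values are uncertain.

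The receptors, adaptors and kinases that lead from TLR4 to Ifnb1 differed little. Of the 23 tested, 7 were called higher and none lower, with a median of 0.04. Apart from Irf7, the interferon-inducible factor that amplifies alpha interferon transcription (1.21, SE 0.13), the largest was Map3k8, the gene of TPL-2, which read 9.81, 9.83 and 9.91 in the LysM libraries and 10.27, 10.43 and 10.34 in the FosKO libraries. Its groups did not overlap, and the difference was 0.50 (SE 0.06, adjusted p = 9.4e-07). The adaptor Myd88 (0.27), the kinase Tbk1 (0.15), its relative Ikbke (0.30) and the scaffold Tank (0.27) were called with smaller differences, and the calls of Ikbke and Tank were lost when the high 18S libraries alone were fitted. The factor Irf3 and the adaptors Ticam1 and Traf6 were among the 16 not called, all of which lay between -0.06 and 0.18.

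The interferon-stimulated genes were higher as a group, and they were so before LPS. Of 42 antiviral effectors tested, 41 were called higher and 1, Ifi27l2a, lower at -0.23 (adjusted p = 0.0362), and the median difference was 0.75 (0.74 without LPS). The Ifi27l2a call was lost, at differences of -0.25 to -0.18, when LysM replicate 2 or 3 or FosKO replicate 2 or 3 was left out, and also with no filter, with the 18S set as a term and with the high 18S libraries alone. Rsad2, which encodes viperin, an enzyme that blocks viral RNA synthesis, read 13.67, 13.64 and 13.78 in the LysM libraries and 15.51, 15.95 and 15.9 in the FosKO libraries. All FosKO libraries were above all LysM libraries, by 2.09 (SE 0.19, adjusted p = 5.1e-08). Ifit2, a protein that binds viral RNA, read 13.78, 13.82 and 13.97 in the LysM libraries and 15.62, 15.98 and 15.96 in the FosKO libraries, a difference of 2.0 (SE 0.16). Its neighbour Ifit1 differed by 1.86, and Ifit3 and Ifit3b, near copies of each other whose reads may be shared, by 1.68 and 1.99. At these genes FosKO replicate 1, the low 18S library, was the lowest of the FosKO libraries, and within the low libraries the difference of Rsad2 was 1.8 against 2.26 within the high ones.

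Other effectors at least 2-fold higher were Cmpk2 (1.93), the neighbour of Rsad2 on chromosome 12, Oasl1 (1.69), which restrains translation of Irf7, Ifi44 (1.66), the GTPases Mx1 (1.56) and Mx2 (1.34), the ubiquitin-like modifier Isg15 (1.29), the exonuclease Isg20 (1.24) and Phf11d (1.28). All 16 interferon-inducible GTPases tested were called higher, with a median of 1.29 against 0.0020 over all tested genes. These proteins attack the vacuoles of intracellular pathogens. Gbp5 read 10.64, 10.59 and 10.71 in the LysM libraries and 12.05, 12.5 and 12.6 in the FosKO libraries, a difference of 1.74 (SE 0.22), and Gbp2, Gbp3, Gbp4, Gbp6 and Gbp7 differed by 1.57, 1.39, 1.5, 1.97 and 1.19. The p47 GTPases Iigp1 (1.57), Ifi47 (1.18) and the near-identical pair Tgtp1 and Tgtp2 (1.59 and 1.5) followed. The GTPase list had a median of 1.26 without LPS.

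Of 12 nucleic acid sensors 9 were higher and 1, the endosomal RNA receptor Tlr7 (-0.21), lower, a call lost with the high 18S libraries alone. The median of the sensors was 0.58 (0.61 without LPS). Zbp1, a sensor of Z-form nucleic acid, differed by 1.44 (SE 0.13), and the RNA sensors Ifih1 (MDA5) and Ddx58 (RIG-I) by 0.93 and 0.91. In the receptor and transcription factor list, 9 of 19 were higher and 5 lower, or 3 lower with the high 18S libraries alone. Stat2, part of the interferon-activated complex, read 11.61, 11.6 and 11.75 in the LysM libraries and 12.61, 12.81 and 12.78 in the FosKO libraries, without overlap and 1.08 apart (SE 0.10). Usp18, the brake on the interferon receptor, differed by 1.08 and Irf8 by 0.31. Irf4 went the other way. This factor, linked to alternative activation of macrophages, read 8.08, 8.17 and 8.32 in the LysM libraries and 6.95, 6.71 and 7.04 in the FosKO libraries, a difference of -1.29 (SE 0.14, adjusted p = 5.9e-07). Cish, a STAT5 target and inhibitor, was -0.60 at 1 h but 0.31 without LPS (adjusted p of the difference 0.00291). Of 24 MHC and antigen presentation genes 17 were higher and none lower, with a median of 0.42 (0.50 without LPS). Among the higher ones were H2-M2 at 1.65, the peptide transporter Tap1 at 0.89, the class I transactivator Nlrc5 at 0.71 and the light chain B2m at 0.42.

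**Figure D3:**
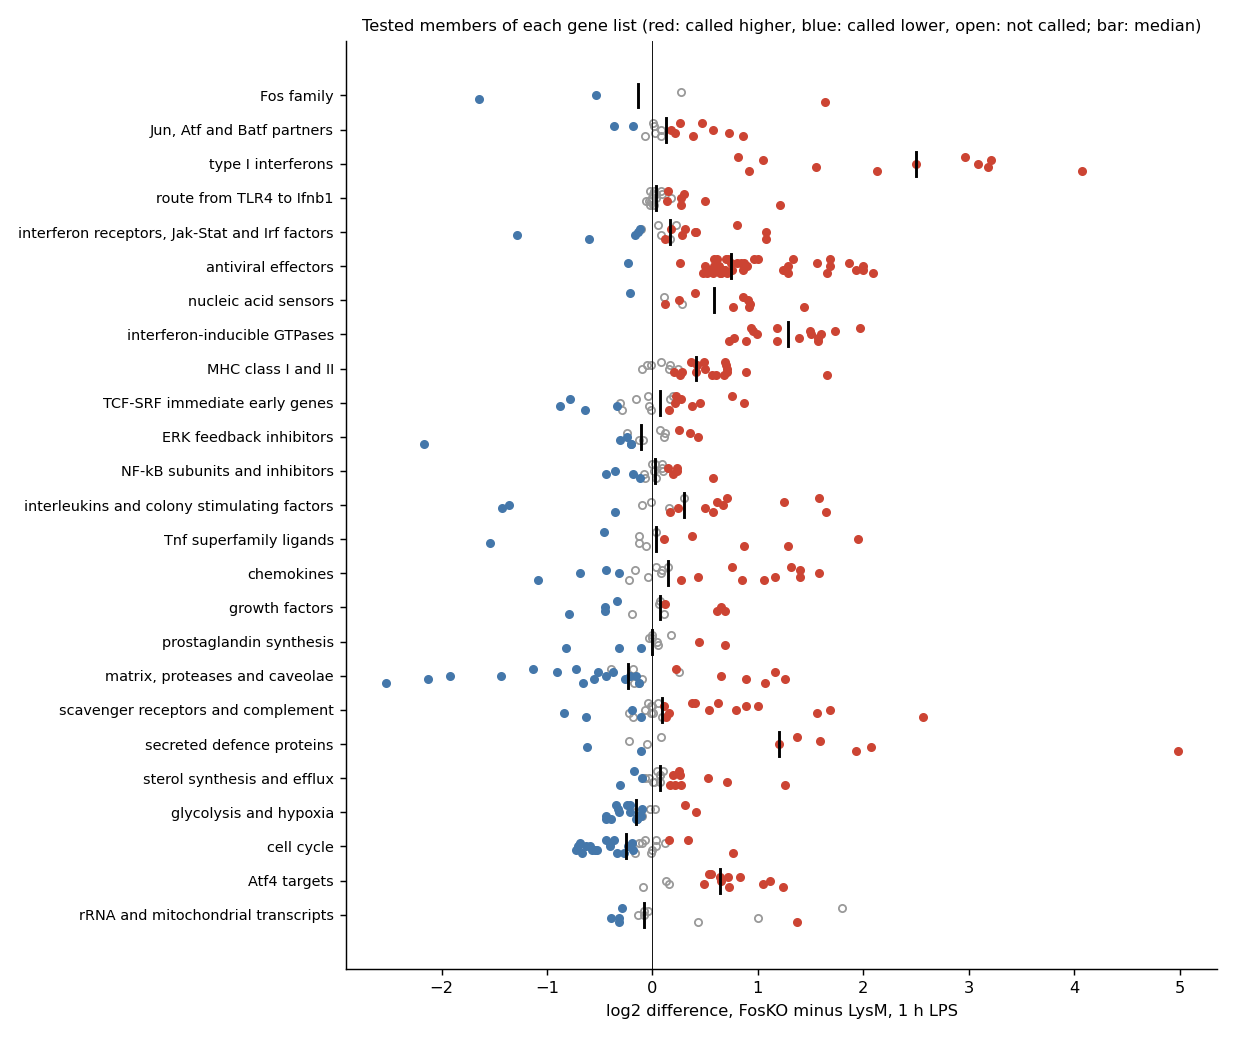
Each point is a tested member of a gene list, with its log2 difference (FosKO minus LysM at 1 h) on the x axis; red points were called higher, blue points lower and open points were not called, and the bar is the list's median. The interferon-inducible GTPases lie wholly above 0, and most matrix, cell cycle and glycolysis genes lie below it.

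The AP-1 genes themselves were split. Fosl1, the gene of FRA-1, read 5.93, 5.95 and 5.99 in the LysM libraries and 4.42, 4.06 and 4.46 in the FosKO libraries, and FosKO was lower, with a difference of -1.64 (SE 0.14, adjusted p = 1.3e-08), with no overlap. Fosl2, the gene of FRA-2, was also lower (-0.54, SE 0.06). Together with Fos itself, 1 of the 4 family members was higher and 2 lower. Among 16 JUN, ATF and BATF partners 8 were higher and 2 lower, with a median of 0.13. Jun, the main partner of FOS, read 11.35, 11.37 and 11.45 in the LysM libraries and 11.94, 12.05 and 11.9 in the FosKO libraries. Its groups did not overlap and differed by 0.57 (SE 0.04). The LPS-induced repressor Atf3 read 13.45, 13.43 and 13.38 in the LysM libraries and 14.13, 14.17 and 14.13 in the FosKO libraries, a difference of 0.72 (SE 0.03, adjusted p = 3.4e-12). Both were closer to equal without LPS, at 0.14 and 0.21, and the 1 h difference exceeded that at 0 h (adjusted p = 9.6e-05 and 1.6e-06). Batf2, an interferon-induced partner, differed by 0.86. Jdp2, an AP-1 repressor, was lower (-0.37), a call lost with the high 18S libraries alone. The number of lower partners fell from 2 to 1 without LysM replicate 2 or 3 or FosKO replicate 2 or 3, with no filter, median centring, no variance trend or the 18S set as a term, and to 0 with the high 18S libraries alone. It was 3 with quantile normalisation.

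Genes on a list of immediate early genes, with TCF and SRF targets among them, moved in both directions, 8 of 20 higher and 4 lower. Whether these factors drive each listed gene was not tested. Egr1, an early zinc finger factor, read 11.71, 11.79 and 12.04 in the LysM libraries and 12.65, 12.78 and 12.72 in the FosKO libraries. FosKO was the higher by 0.87 (SE 0.10, adjusted p = 7.9e-07), although the difference was -0.21 without LPS and -0.07 at 0.5 h. Klf2, which restrains macrophage activation, read 7.98, 8.02 and 8.04 in the LysM libraries and 8.7, 8.8 and 8.79 in the FosKO libraries, again without overlap (0.75, SE 0.07), and Ier2 differed by 0.45. On the lower side, Myc, a regulator of growth and metabolism, read 11.06, 11.12 and 11.26 in the LysM libraries and 10.27, 10.29 and 10.25 in the FosKO libraries, a difference of -0.88 (SE 0.07). Klf10, a repressor in the TGF-β pathway, read 9.5, 9.71 and 9.67 in the LysM libraries and 8.82, 8.81 and 8.9 in the FosKO libraries, a difference of -0.79 (SE 0.06) against 0.04 without LPS. The orphan receptor Nr4a1 (-0.64) and Egr3 (-0.33) were lower, the latter not called with the high 18S libraries alone. In this list the difference at 1 h departed from that at 0 h for 10 genes, 7 of the 20 upward and 3 downward, against 0.489% and 0.727% of all tested genes.

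Of 14 genes that feed back on ERK signalling, 3 were higher and 5 lower, and without FosKO replicate 1 only 3 were lower. With the high 18S libraries alone 4 were higher and 2 lower. Dusp5, a nuclear phosphatase specific for ERK, stood apart. It lies on chromosome 19 (53529109 to 53542431) and read 11.51, 11.53 and 11.66 in the LysM libraries and 9.47, 9.31 and 9.4 in the FosKO libraries. All FosKO libraries were below all LysM libraries, a difference of -2.17 (SE 0.07, adjusted p = 7.2e-15), or 4.5-fold lower. Its difference was -0.99 without LPS, -1.86 at 0.5 h and -0.70 at 2 h, and 1 h differed by test from both 0 h (adjusted p = 2.9e-07) and 2 h (adjusted p = 2.1e-08). The RefSeq promoter of Dusp5 holds 2 CArG boxes, the sequence SRF binds, with the letters CCATATTTGG and CCTTATATGG. They lie 82 to 73 and 72 to 63 bases upstream of the RefSeq start, which is not the gene start printed above. An NF-κB match at 90 to 81 bases (GGAAATACCC) overlaps the first of them. Dusp1, a phosphatase of p38 and JNK, was slightly lower (-0.31), while Dusp6, a cytoplasmic ERK phosphatase, was higher (0.43).

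NF-κB subunits and inhibitors were near balance, 5 of 18 higher and 4 lower, with a median of 0.03 (0.26 without LPS), and 3 were higher without LysM replicate 1 or FosKO replicate 3. With quantile normalisation 4 were higher and 6 lower, and with the high 18S libraries alone 4 and 2. The difference at 1 h departed from that at 0 h for 7 of the 18, 1 upward (Zfp36) and 6 downward (Bcl3 among them), against 0.489% and 0.727% of all tested genes. Zfp36, which speeds decay of cytokine mRNAs, differed by 0.57 (SE 0.07). Bcl3, a nuclear partner of p50, differed by -0.44 after 0.38 without LPS (adjusted p of the difference 5.2e-05), and Tnip3 by -0.36.

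Cytokine genes divided into a higher and a lower group. Of 17 interleukins and colony stimulating factors 10 were higher and 3 lower. Il6, a cytokine of the acute phase (chromosome 5, 30013114 to 30019981), read 6.51, 6.45 and 6.5 in the LysM libraries and 8.03, 8.05 and 8.32 in the FosKO libraries. Each FosKO library was above each LysM library, by 1.65 (SE 0.12, adjusted p = 1.2e-09), and without LPS the difference was 0.12. Il12b, the p40 subunit of IL-12 and IL-23, read 9.59, 9.7 and 9.56 in the LysM libraries and 10.68, 10.85 and 11.05 in the FosKO libraries, a difference of 1.25 (SE 0.11), and Il27 read 8.21, 7.97 and 8.09 in the LysM libraries and 9.44, 9.75 and 9.83 in the FosKO libraries, a difference of 1.58 (SE 0.13). Both were also larger than at 0 h (adjusted p of the difference 0.00176 and 0.0276). Csf1 (0.71), the growth factor of macrophages, Il15 (0.67), Il18 (0.61), Osm (0.57) and the IL-1 antagonist gene Il1rn (0.50) were higher by less than 2-fold.

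On the lower side, Csf2, which encodes GM-CSF, read 8.16, 8.03 and 8.12 in the LysM libraries and 6.82, 6.5 and 6.72 in the FosKO libraries. The groups did not overlap, and the difference was -1.43 (SE 0.13, adjusted p = 3.4e-08) after 0.0084 without LPS. Il10, the anti-inflammatory cytokine, read 8.17, 8.14 and 8.43 in the LysM libraries and 6.95, 6.82 and 6.88 in the FosKO libraries, a difference of -1.36 (SE 0.13, adjusted p = 1.4e-07) after -0.26 without LPS (adjusted p of the difference 0.00222). Il6 and Csf2 thus went in opposite directions from nearly equal values in resting cells.

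Of 11 TNF superfamily ligands 5 were higher and 2 lower. Tnfsf15, or TL1A, read 7.48, 7.62 and 7.47 in the LysM libraries and 9.17, 9.53 and 9.71 in the FosKO libraries, a difference of 1.94 (SE 0.18), and the death ligand Tnfsf10, or TRAIL, differed by 1.29. Tnf itself was high in all libraries and differed by 0.38 (SE 0.06). Tnfsf14, or LIGHT, read 7.22, 7.13 and 7.08 in the LysM libraries and 5.7, 5.57 and 5.55 in the FosKO libraries, a difference of -1.54 (SE 0.09, adjusted p = 6e-11), and Tnfsf4, or OX40L, differed by -0.46.

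Among 21 chemokines 10 were higher and 4 lower. The higher ones included the interferon-induced ligands of CXCR3. Cxcl10 read 13.03, 12.95 and 12.94 in the LysM libraries and 14.38, 14.61 and 14.66 in the FosKO libraries, a difference of 1.58 (SE 0.20), Cxcl11 differed by 1.4 and Cxcl9 by 1.16. Among CC chemokines Ccl12 differed by 1.4, Ccl5 by 1.32 and Ccl8 by 1.06, and the macrophage inflammatory protein genes Ccl3 and Ccl4 by 0.75 and 0.85. Ccl22, a ligand of CCR4, read 8.96, 9.03 and 8.97 in the LysM libraries and 7.71, 7.8 and 8.19 in the FosKO libraries. It was lower in all FosKO libraries, with a difference of -1.08 (SE 0.11), and neither without LPS (0.0025) nor at 0.5 h (-0.07) was there a difference of that size. The neutrophil attractant Cxcl3 was also lower (-0.69) after 0.29 without LPS. Its relative Cxcl1 differed by -0.44, a call lost with the high 18S libraries alone and without LysM replicate 2 or 3 or FosKO replicate 2 or 3 (-0.45 to -0.34).

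**Figure D4:**
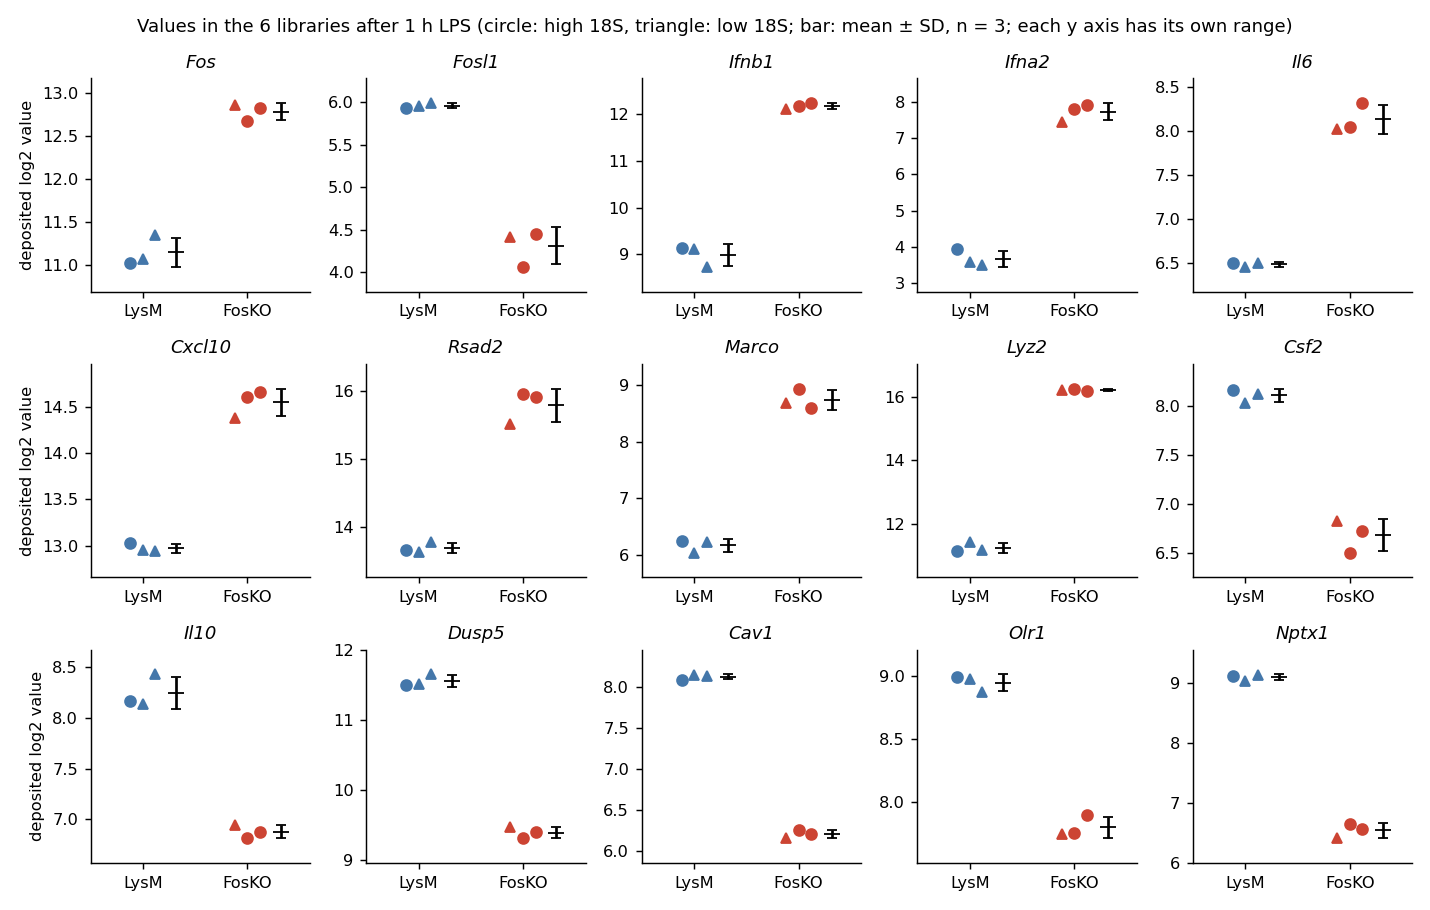
Each panel shows the deposited log2 values of a gene in the 3 LysM (blue) and 3 FosKO (red) libraries at 1 h, circles for high 18S and triangles for low 18S libraries, with mean and SD (n = 3). In none of the 15 panels do the groups overlap, and each panel has its own y range.

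Of 12 growth factor genes 4 were higher and 4 lower, or 2 and 3 with the high 18S libraries alone. Hbegf, an EGF receptor ligand, was lower (-0.79, SE 0.09), and Bmp2 higher (0.65). Of 11 genes of prostaglandin synthesis, 2 were higher and 3 lower. The inducible cyclooxygenase Ptgs2 differed by 0.69 (SE 0.13) and the constitutive one, Ptgs1, by -0.82 (SE 0.08), in opposite directions.

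Genes of the matrix, of proteases and of caveolae were lower more often than higher, 16 of 28 against 6, with a median of -0.24. Cspg4, a membrane proteoglycan, read 7.93, 7.65 and 7.69 in the LysM libraries and 5.04, 5.19 and 5.45 in the FosKO libraries, a difference of -2.53 (SE 0.15). Col18a1, a basement membrane collagen, read 11.56, 11.54 and 11.55 in the LysM libraries and 9.42, 9.3 and 9.55 in the FosKO libraries, a difference of -2.13 (SE 0.06). Both were as low without LPS (-2.46 and -2.19). Cav1, the coat protein of caveolae, read 8.09, 8.15 and 8.13 in the LysM libraries and 6.16, 6.26 and 6.21 in the FosKO libraries. Its FosKO libraries were all lower, with a difference of -1.92 (SE 0.09, adjusted p = 1e-12), after -0.95 without LPS (adjusted p of the difference 6.6e-05). The caveola gene Ptrf (cavin 1) and Cav2 differed by -1.44 and -0.72. The protease inhibitor Timp1 and the plasminogen activator Plau differed by -1.13 and -0.91. The higher members included the thrombospondin Thbs1 (1.25), the membrane protease Mmp14 (1.16), Serpinb2 (1.06), which inhibits plasminogen activators, fibronectin (Fn1, 0.89) and Mmp9 (0.65), whose call was lost with the high 18S libraries alone and without LysM replicate 2 or FosKO replicate 1 or 3 (0.55 to 0.60).

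Scavenger and complement genes were higher at 13 of 27 and lower at 4, or at 2 without LysM replicate 1 or FosKO replicate 2. With quantile normalisation 9 were higher and 7 lower. Marco, a receptor for bacteria and particles, read 6.25, 6.04 and 6.22 in the LysM libraries and 8.67, 8.93 and 8.6 in the FosKO libraries. The groups did not overlap and differed by 2.56 (SE 0.13, adjusted p = 4.4e-12), about as much as without LPS (2.76). The complement genes C3 and Cfb differed by 1.56 and 1.69, the Fc receptors Fcgr2b, Fcgr4 and Fcgr1 by 1.00, 0.79 and 0.63, and Mertk, a receptor for apoptotic cells, by 0.89. Cd163, the haemoglobin scavenger, and Cd36, a lipid scavenger, were lower (-0.84 and -0.63).

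The largest rise of all tested genes was at Lyz2. Lyz2, lysozyme M, on chromosome 10 (117277331 to 117282321), is the locus that carries Cre in LysM-Cre mice. It read 11.12, 11.42 and 11.17 in the LysM libraries and 16.2, 16.26 and 16.19 in the FosKO libraries, a difference of 4.98 (SE 0.09, adjusted p = 8.1e-20), or 31.6-fold. The difference was of like size at 0, 0.5 and 2 h (5.17, 4.89 and 5.06). Its neighbour Lyz1 is a near copy, so they may share reads. Lyz1 differed by -0.62 (SE 0.17), a call lost with the high 18S libraries alone. The number of Cre copies in each group was not given in the sources used here, and the part of that locus in other differences cannot be told apart from that of Fos. Of 11 secreted defence genes, with a median of 1.2 (0.96 without LPS), 6 were higher, all at least 2-fold, and 2 lower. Only 1 was lower without LysM replicate 2 or FosKO replicate 1. The same held with only the 6 libraries at 1 h, with or without the replicate number as a block. Saa3, an acute phase protein, read 8.13, 8.16 and 8.12 in the LysM libraries and 9.93, 10.3 and 10.4 in the FosKO libraries, a difference of 2.07 (SE 0.18). Nos2, the inducible nitric oxide synthase, read 6.03, 6.2 and 6.17 in the LysM libraries and 7.47, 8.23 and 8.5 in the FosKO libraries, and its difference of 1.93 (SE 0.29) was 1.28 in the low and 2.34 in the high 18S libraries. Haptoglobin (Hp, 1.59), the itaconate enzyme gene Irg1 (1.37) and the antiprotease Slpi (1.2) were also higher.

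Several of the 10 largest falls, by the rule used for naming genes, were as large in resting cells. Nptx1, a secreted pentraxin best known from neurons (chromosome 11, 119538719 to 119547753), read 9.11, 9.03 and 9.14 in the LysM libraries and 6.41, 6.64 and 6.56 in the FosKO libraries, a difference of -2.56 (SE 0.07, adjusted p = 1.5e-15). Smpd3, a neutral sphingomyelinase, read 7.71, 7.7 and 7.51 in the LysM libraries and 5.29, 5.27 and 5.2 in the FosKO libraries, a difference of -2.39 (SE 0.10). Folr2, a folate receptor of resident macrophages, read 11.3, 11.2 and 11.38 in the LysM libraries and 9.35, 9.0 and 9.28 in the FosKO libraries, a difference of -2.08 (SE 0.09). The rule admitted only genes whose genotypes did not overlap at 1 h, so the lack of overlap here is no result. Without LPS the differences of these genes were -2.6, -2.29 and -2.03. Cyp2s1, Akap2 and Slco2b1 differed by -2.18, -2.12 and -1.89. Among the 10 largest rises by that rule was also Fam26f, an interferon-responsive membrane protein gene (2.1, SE 0.20). The lowest difference of all, -4.65, was at Gm8210 and Gm13841, singled out after their values were seen. Their values were equal in every library, so they cannot be told apart.

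Metabolic and cell cycle genes gave small differences. Glycolysis and hypoxia genes were lower at 15 of 21 and higher at 2, with a median of -0.16 (-0.18 without LPS), and 8 were lower with the high 18S libraries alone. Pdk1, which diverts pyruvate from mitochondria, differed by -0.44 (SE 0.05), the lipid droplet gene Hilpda by -0.45 and the glycolytic enzyme gene Gpi1 by -0.32. Of 30 cell cycle genes 18 were lower and 3 higher, with a median of -0.25 (-0.35 without LPS). The mitotic cyclins Ccnb2 and Ccnb1 and the survivin gene Birc5 differed by -0.72, -0.71 and -0.69, and Ccnd2, a G1 cyclin, by 0.76. In bulk RNA, fewer cells of a type or in a phase and less RNA per cell cannot be told apart. Of 21 sterol genes 9 were higher and 3 lower, or 12 and 1 with the high 18S libraries alone, and only Ch25h, the interferon-induced cholesterol 25-hydroxylase, passed 2-fold (1.26, SE 0.10).

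Targets of the stress factor ATF4 were higher at 11 of 14 and lower at none, with a median of 0.64 (0.53 without LPS). Chac1, which degrades glutathione, read 5.13, 5.07 and 5.15 in the LysM libraries and 6.4, 6.3 and 6.36 in the FosKO libraries, a difference of 1.24 (SE 0.12). Trib3 and Ddit3, the gene of CHOP, differed by 1.11 and 1.05, the cystine transporter gene Slc7a11 by 0.83 and Asns by 0.56. Atf4 itself differed by 0.26 (SE 0.04).

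Markers of other cells moved with genotype in part. Neutrophil markers summed to 6.87 to 7.28 in LysM and 6.29 to 6.33 in FosKO libraries, and all 4 of the 10 in the table that were tested were lower, among them S100a9 (-1.04) and Ngp (-1.02), while Ly6g, Elane, Prtn3, Camp, Retnlg and Cxcr2 were below the filter. Osteoclast markers summed to 10.18 to 10.24 in LysM and 9.49 to 9.79 in FosKO libraries, and 3 of 4 tested were lower, with Dcstamp at -0.82 and Ocstamp at -0.72. Ocstamp passed the filter only through LysM libraries, so its lower value gives no support. Endothelial markers summed to 8.39 to 8.60 and 8.98 to 9.35, and of the 3 tested Kdr was called higher (0.75) while the other 2 (-0.16 and -0.05) were not called, so the higher sum came with a single gene, and Tek and Emcn were below the filter. Lymphocyte markers summed to 8.05 to 8.25 and 8.40 to 8.41, and 3 of 14 were tested, of which Cd4 was called higher (0.36), Cd79b lower (-0.29) and the other not called (0.02). Cd4 was not called without LysM replicate 1 (0.28), nor Cd79b without LysM replicate 1 or 2 or FosKO replicate 2 or 3 (-0.29 to -0.21). Dendritic cell markers summed to 11.61 to 11.74 and 11.32 to 11.54, and of the 5 tested Ccr7 (0.46) and Xcr1 (0.42) were called higher and Itgax (-0.26) lower. The Ccr7 call was lost without FosKO replicate 1 (0.33) and the Xcr1 call when any 1 of the 6 libraries was left out (0.39 to 0.47). Fibroblast markers (5.97 to 6.24 and 5.76 to 5.97) and those of erythroid and megakaryocyte cells (3.97 to 4.20 and 3.85 to 4.15) and mast cells (4.95 to 5.4 and 4.64 to 4.89) were low in both. Of 6 fibroblast markers tested Postn was called higher (0.50) and of the mast cell markers Kit, alone tested, lower (-0.53). The Postn call was lost without LysM replicate 2 or FosKO replicate 1 or 2 (0.34 to 0.48), the Kit call without LysM replicate 2 or 3 or FosKO replicate 1 or 3 (-0.50 to -0.43). The part of these cells in the results was not tested. Of 12 ribosomal and mitochondrial transcripts, 4 were lower and 1, mt-Co3, was called higher. It read 13.78, 13.65 and 13.51 in the LysM libraries and 14.37, 15.3 and 15.36 in the FosKO libraries, a difference of 1.37 (SE 0.51, adjusted p = 0.0458), a call that leaving out any LysM library or FosKO replicate 2 or 3 ended.

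The comparison at 1 h was then set against the other times, which share no library with it but share its estimate of the spread. Of the 160 genes at least 2-fold higher at 1 h, 134 (83.75%) were also called higher without LPS, where 19.5% of all tested genes were (35.4% were called in either direction), and 105 were at least 2-fold higher there, against 1.02% of all tested genes. Of the 77 lower genes, 71 (92.2%) were also called lower without LPS, where 15.9% of all tested genes were, and 49 passed 2-fold, against 0.453% (1.47% in either direction). The median difference of the 160 genes was 1.22 at 0 h and 1.36 at 1 h, and that of the 77 was -1.10 and -1.29. At 0.5 h 139 and 75 of them, and at 2 h 144 and 73, were called in the same direction (backgrounds of 21.2% and 19.7%, and of 24.4% and 20.3%). At least 2-fold were 122 and 57 of them at 0.5 h, where 1.49% and 0.669% of all tested genes were (2.16% in all), and 108 and 49 at 2 h, where 1.43% and 0.561% were (1.99% in all). Calls in either direction covered 40.9% and 44.6% of all tested genes at these times. Most of the 2-fold genes at 1 h were thus called in the same direction in resting cells.

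A smaller set of genes differed by genotype in its response. The genotype difference at 1 h departed from that at 0 h for 169 genes (1.22%), 68 upward (0.489%) and 101 downward (0.727%). Among protein-coding genes with a mean linear value of at least 50 over the 6 libraries, the 4 largest upward differences were at Ifna2, Ifnb1, Ifna5 and Il6 (1.53, adjusted p = 7.2e-06), and the 4 largest downward ones at Csf2 (-1.43, adjusted p = 6.9e-05), Olr1 (-1.26), Adora2b (-1.25) and Dusp5 (-1.18). Olr1, the receptor for oxidised LDL, read 9.0, 8.98 and 8.87 in the LysM libraries and 7.74, 7.75 and 7.9 in the FosKO libraries, a difference of -1.15 (SE 0.10) after 0.10 without LPS. Adora2b, an adenosine receptor, read 8.03, 8.03 and 8.14 in the LysM libraries and 6.43, 6.18 and 6.33 in the FosKO libraries, a difference of -1.75 (SE 0.08) after -0.51. At both genes every FosKO library was below every LysM library.

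Against 0.5 h the genotype difference departed for 147 genes (1.06%), 69 upward (0.496%) and 78 downward (0.561%), with Ifna2 (3.74), Ifna5 (3.05), Fos (2.41) and Ifnb1 (1.5) as the 4 largest upward differences under the same limits and Adora2b (-1.34), Ccl22 (-1.02), Cav1 (-0.93) and Oaf (-0.92) as the 4 largest downward ones. Against 2 h it departed for 1619 genes (11.6%), 796 upward (5.73%) and 823 downward (5.92%). Klf4, a macrophage differentiation factor, and Zfp36l1, a relative of Zfp36, were not called at 1 h (-0.0099 and -0.13) and higher in FosKO at 2 h (1.27 and 1.02). The other way round stood Klhl42 and Bahcc1, at 0.06 and 0.09 at 1 h (not called) and lower at 2 h (-0.98 and -0.92). The difference of Chac1 was 0.04 at 2 h.

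**Figure D5:**
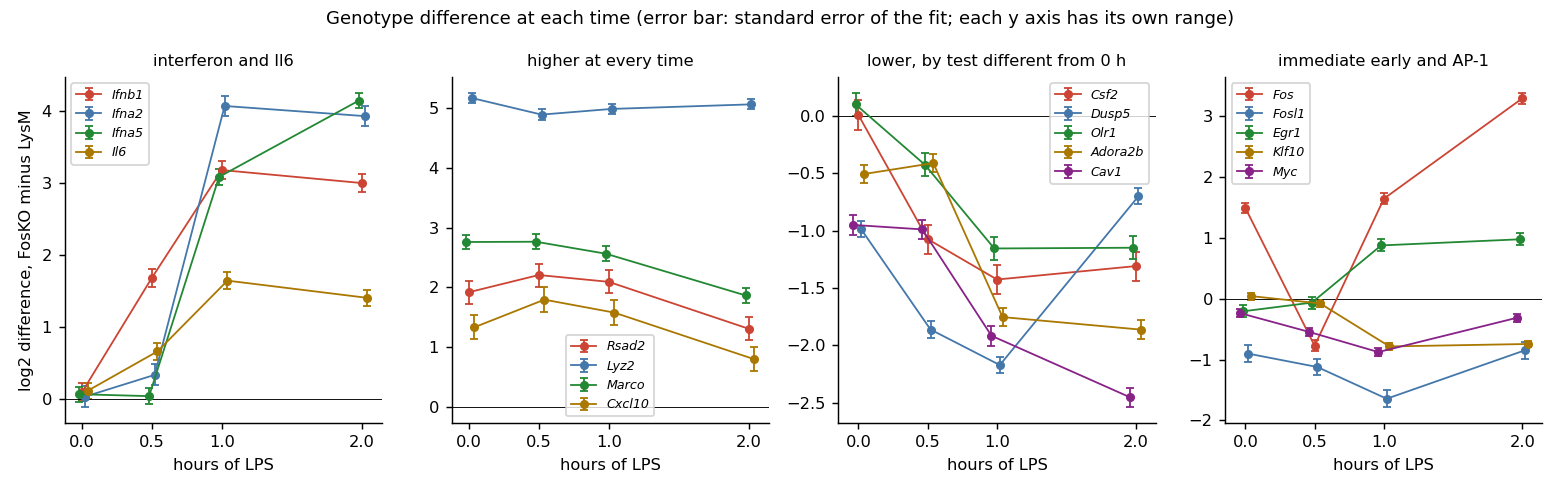
The y axis of each panel is the log2 difference, FosKO minus LysM, at 0, 0.5, 1 and 2 h of LPS (x axis), with the standard error of the fit (3 libraries in each group at each time). The interferon genes and Il6 start near 0 and rise, Lyz2, Marco and Rsad2 are raised from the start, and Csf2 and Olr1 start near 0 and fall.

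The promoters of the 2-fold genes were searched for the same letters in the RefSeq window from 250 bases before to 50 after the start. Of the 160 higher genes 112 had a window, and of the 77 lower genes 54. A gene was counted when any of its windows held a match, so shares of genes are not on the same footing as shares of windows. AP-1 matches were found for 16.1% of the higher genes with a window and 14.8% of such lower genes. They were found for 6.39% of the 9866 tested genes with a window and in 7.81% of all 32851 windows. ISRE matches were in 32.1% of higher and 3.7% of lower genes, against 4.14% of tested genes and 3.44% of all windows. NF-κB matches were in 7.14% and 3.7%, against 2.82% and 2.4%. The cyclic AMP response element (TGACG and then TCA) was in 3.57% and 1.85%, against 3.56% and 1.79%, and the CArG box in 0.893% and 5.56%, against 1.46% and 1.63%. The AP-1 share was thus about equal in the genes that were higher and those that were lower, and the ISRE share was not. No test was made, and the genes share neighbours and family members.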

How the data were processed

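RNA was sequenced in 24 libraries of bone marrow-derived macrophages of 2 genotypes at 4 times of LPS treatment (3 libraries in each of 8 groups). Per the submitters' processing notes the authors used STAR 2.5.2a, RSEM 1.2.31 and DESeq2 1.16.1 with the GRCm38 build. The authors deposited log2 normalised expression values per gene for all libraries in 1 table, and how they were normalised is not given in the sources used here. The table held 24273 genes and 0 columns of other samples. The study's methods give a typical sequencing yield, but the depth of each library and the reads per gene are not in the table. Precision thus rests on the spread between libraries of a group, which the fit estimated over all 24 libraries.

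Genes with a linear value (2 to the deposited log2 value) of at least 5 in at least 3 of the 24 libraries were tested (13901). limma 3.58.1 in R 4.3.3 fitted the 8 group means to all 24 libraries with a variance trend, and p-values were adjusted by Benjamini-Hochberg over all tested genes. At 3 libraries a group the smallest p that exact permutation could give is 0.1. Genotype differences at 1 h were also tested against those at the other times. The fit was also tried on simulated data of 13901 genes. It recovered 96% of 100 genes changed by 1 on the log2 scale and 79% of 100 changed by 0.5. Of its 187 calls 12 were false. Only these genes were changed in the simulation, while 33.9% of the tested genes were called at 1 h in the deposited values. Whether the rates hold at such a share, or with the ribosomal RNA split between libraries, was not tested.

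Named genes were members of the fixed lists and the 10 largest rises and falls at 1 h, and the 4 largest differences each way between 1 h and each other time, taken from protein-coding genes that were called and whose linear values averaged 50 or more. The 10 largest rises and falls also had to show no overlap between the genotypes at 1 h. Where the text says that the libraries of such a gene did not overlap, the rule had set this. From a list, members called with at least 2-fold were named, or otherwise the 3 largest. Further members with smaller differences were named after their values were seen. The comparison and the lists were chosen with earlier results of these data known. Alternatives changed the libraries in the fit, the filter, the scaling, a pseudocount of 1, the variance trend, the treatment of 18S, and the replicate number as a block, and left out each 1 h library in turn. Promoters came from a RefSeq table (GRCm38.p6), whose starts can differ from the gene coordinates in the text, as at Ifnb1 and Dusp5. Some items are not reported here.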

Additional observations from a re-analysis of the deposited data

Results flagged for a closer look

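The genotype difference was tested between times in limma, and for each contrast the 4 largest differences each way are given, taken from protein-coding genes that were called and whose linear values averaged 50 or more over the 6 libraries at 1 h (n = 3 libraries in each group). Ifna2 and Ifna5 reach that mean through their FosKO libraries, and their single values are uncertain. From 0 h to 1 h the difference FosKO minus LysM rose by 4.04 at Ifna2 (adjusted p = 8.4e-11), 3.09 at Ifnb1, 3.02 at Ifna5 and 1.53 at Il6. It changed by -1.43 at Csf2, -1.26 at Olr1, -1.25 at Adora2b and -1.18 at Dusp5 (adjusted p = 2.9e-07).

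From 0.5 h to 1 h it rose by 3.74 at Ifna2, 3.05 at Ifna5, 2.41 at Fos and 1.5 at Ifnb1 (adjusted p = 3.6e-05). It changed by -1.34 at Adora2b, -1.02 at Ccl22, -0.927 at Cav1 and -0.921 at Oaf (adjusted p = 0.00161).

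Against 2 h, the difference at 1 h was larger by 1.19 at Chac1, 1.05 at Klhl42, 1.02 at Bahcc1 and 0.96 at Ptger2, the gene of a prostaglandin E2 receptor (adjusted p = 5.8e-05). The 1 h value minus the 2 h value was -1.65 at Fos, -1.47 at Dusp5, -1.28 at Klf4 and -1.14 at Zfp36l1 (adjusted p = 3.8e-07). No group had the 4 libraries or more needed to look for a library far from the others.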

How the results depend on the processing

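Of 189 named genes, 179 to 189 (184 of 184 with the stricter filter) kept their direction and their side of the threshold under each setting other than the high 18S libraries alone, where 166 did and 21 lost their call. With those libraries alone 2994 genes were called (1257 lower). Between 1 h and 0 h 93 were called (32 lower), between 1 h and 0.5 h 59 (43 higher, 16 lower), and between 1 h and 2 h 611 (325 higher, 286 lower). This setting has fewer libraries. With only the 4 groups compared, 112 were called between 1 h and 0 h (60 lower) and 75 between 1 h and 0.5 h (45 higher, 30 lower). The cause was not tested.

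Leaving out each 1 h library in turn gave 3790 to 4766 called genes, 211 to 383 at least 2-fold (142 to 294 higher), and 67 to 95 lower between 1 h and 0 h and 50 to 73 lower between 1 h and 0.5 h. The 383 and 294 came without FosKO replicate 1, and the 67 and 50 without LysM replicate 3. Genes not called at 1 h changed sign. Klhl42 ranged from -0.0026 (without LysM replicate 2) to 0.10, Bahcc1 from -0.0060 (without FosKO replicate 3) to 0.15, and Klf4 from -0.058 to 0.040 (positive without LysM replicate 3 or FosKO replicate 1). With the high 18S libraries alone Klf4 was 0.069 and Zfp36l1 0.021. Zfp36l1 ranged from -0.20 (without LysM replicate 1, when it was called lower) to -0.049 (without LysM replicate 3), and was called lower with quantile normalisation (-0.21).

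The libraries share only a replicate number, and no pairing was shown. Deviations of same-numbered libraries correlated at -0.53, -0.21 and -0.27, but each such pair joins a high and a low 18S library, so this cannot show whether the numbers pair them. With the replicate block 4876 genes were called over 24 libraries and 3236 (1385 lower) in the 6 libraries at 1 h. Median centring and quantile normalisation moved the median of all genes to 0.008 and -0.022. Depth per library is not in the table, so what it limits could not be given.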
